A study of Mus musculus with 5 samples.

Results

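Neutrophil genes were followed in mouse colon through the azoxymethane (AOM) and dextran sulfate sodium (DSS) model of colitis-associated cancer. The 10 genes were chosen by symbol, with no threshold on their levels, and each had 1 row among the 52382 genes of the table: S100a8, S100a9, Retnlg, Csf3r, Cd177, Clec4d, Clec4e, Trem1, Fpr1 and Fpr2. There were 5 RNA sequencing libraries of colon from wild-type male C57BL/6 mice aged 8 to 12 weeks at the start, 1 library for each week. W0 was the control, kept on distilled water and described both as sampled before administration and as killed together with treated mice, W2 was labelled as AOM alone, and W5, W8 and W11 were labelled as AOM and DSS. AOM, a mutagen, was given at 8.5 mg per kg by injection on days 1 and 8, and DSS, which injures the colonic epithelium, was given at 1.5% in the drinking water in cycles. The model is chemically induced, with no transgene. From each group 3 mice were selected, and whether their RNA was pooled is not given in the sources used here. With 1 library a week no difference below has a replicate check, and no p-value is given.

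The libraries held between 13389184 (W8) and 20379429 (W5) counted reads. Levels are in CPM, counts per 1000000 counted reads, and 1 read was worth between 0.0491 and 0.0747 CPM. Folds are differences of log2(CPM + 1), and "rose" and "fell" are used only for a difference of at least 2-fold on that scale. Where 5 values stand in a row they are in the order W0, W2, W5, W8 and W11. Ratios are of CPM without the added 1, with exact 95% intervals that cover counting error only, since reads without molecular identifiers are not independent molecules. The labels name intestinal epithelial cells as well as colon tissue. At W0, Epcam of the epithelium stood at 1824 CPM, but Acta2 of smooth muscle stood at 1014 CPM and Ptprc of leukocytes at 47.7 CPM, so the RNA was not from epithelial cells alone. In bulk tissue, a change in the number of neutrophils, a change in RNA per neutrophil and a change in RNA from other cells cannot be told apart.

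Neutrophils are short-lived granulocytes that leave the blood for injured or infected mucosa, where they take up microbes and release granule proteins. S100a8 and S100a9 encode the subunits of calprotectin, a calcium- and metal-binding protein that is abundant in the neutrophil cytosol and is measured in stool as a sign of intestinal inflammation. Csf3r is the receptor for granulocyte colony-stimulating factor, which drives neutrophil production. Formyl peptide receptors guide neutrophils towards bacterial peptides, and Trem1 amplifies inflammatory signals. Several of these genes are not restricted to neutrophils: keratinocytes can make S100a8 and S100a9, and macrophages can carry Clec4d, Clec4e and Fpr1.

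The sequences upstream of 4 of the genes are shown because these genes mark the ends of the range seen below: S100a8, S100a9 and Retnlg had the largest ratios to W0 at W8, and Cd177 the smallest ratio among the genes that rose. Each is the 250 bases before the gene start in RefSeq on GRCm38.p6, written 5′ to 3′ on the gene's own strand. Capitals mark matches to 5 short motifs on either strand: TTNNGNAA for C/EBP factors, GAGGAA for PU.1, TGANTCA for AP-1, GGGA and CC parted by 4 bases for NF-kB and TATAAA for the TATA box. The windows are chr3:90668821-90669070 on the plus strand for S100a8, chr3:90695722-90695971 on the minus strand for S100a9, chr16:48872358-48872607 on the plus strand for Retnlg and chr7:24760312-24760561 on the minus strand for Cd177.
S100a8: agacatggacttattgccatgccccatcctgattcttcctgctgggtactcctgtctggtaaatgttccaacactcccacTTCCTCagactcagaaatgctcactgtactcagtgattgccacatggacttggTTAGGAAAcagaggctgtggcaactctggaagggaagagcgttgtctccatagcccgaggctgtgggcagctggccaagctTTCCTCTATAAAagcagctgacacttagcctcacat
S100a9: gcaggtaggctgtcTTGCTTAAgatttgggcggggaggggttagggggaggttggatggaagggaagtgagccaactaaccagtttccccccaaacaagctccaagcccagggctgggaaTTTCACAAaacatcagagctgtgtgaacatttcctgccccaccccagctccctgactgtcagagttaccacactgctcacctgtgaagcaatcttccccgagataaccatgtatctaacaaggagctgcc
Retnlg: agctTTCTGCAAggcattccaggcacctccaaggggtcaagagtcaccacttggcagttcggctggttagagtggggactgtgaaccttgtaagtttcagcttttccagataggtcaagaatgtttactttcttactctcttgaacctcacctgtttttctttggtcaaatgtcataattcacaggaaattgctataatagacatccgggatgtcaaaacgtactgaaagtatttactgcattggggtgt
Cd177: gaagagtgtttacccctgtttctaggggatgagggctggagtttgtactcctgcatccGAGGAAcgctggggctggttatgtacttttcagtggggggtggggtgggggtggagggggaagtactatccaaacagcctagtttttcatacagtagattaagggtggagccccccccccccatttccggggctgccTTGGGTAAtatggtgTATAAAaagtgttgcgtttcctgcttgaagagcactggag

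All 10 genes had an entry in the RefSeq promoter table. The C/EBP motif was found in 9 of the 10 windows, against 36.8% of all 32851 windows of the same length, and the PU.1 motif in 7, against 23.3%. The TATA box motif was found in 5, against 12.4%, the NF-kB motif in 1, that of Csf3r, against 17.6%, and the AP-1 motif in none, against 6.75%. In the S100a8 window the PU.1 match that begins at base 215 lies directly before the TATA box match at base 221. S100a9 and Retnlg, which had ratios to W0 at W8 of 234 and 42.0, held only C/EBP matches. S100a8 and Cd177, with ratios of 118 and 2.197, shared the same 3 kinds of match. The part of these motifs in the levels was not tested. In the GENCODE M21 annotation S100a8 and S100a9 are neighbouring protein-coding genes on chromosome 3, Clec4d and Clec4e on chromosome 6, and Fpr1 and Fpr2 on chromosome 17.

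The calprotectin genes moved furthest. S100a8 was at 0.581, 0, 14.3, 68.5 and 65.8 CPM, the W0 value being 8 counts. Its log2 folds against W0 at W5, W8 and W11 were 3.27, 5.46 and 5.40, and the W8 ratio of 118 had an interval of 59.6 to 274. S100a9 was at 0.435, 0.342, 13.7, 102 and 111 CPM, the W0 and W2 values being 6 and 5 counts. Its log2 folds at the same weeks were 3.36, 6.16 and 6.29, and the W11 ratio of 255 had an interval of 117 to 696. Both genes thus rose at W5 and again between W5 and W8, by 2.19 and 2.80 on the log2 scale, and then stayed within 2-fold of their W8 levels.

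The balance within the calprotectin pair also differed between libraries. There were 0.962 S100a9 counts for each S100a8 count at W5 (95% exact interval 0.814 to 1.14), 1.49 at W8 (1.37 to 1.62) and 1.69 at W11 (1.56 to 1.83). The W5 interval lies below the W8 and W11 intervals, which overlap each other. At W0 the ratio of 0.75 had an interval of 0.214 to 2.46, so 14 counts in all do not place it. Per gene length, in the deposited RPKM values (reads per kilobase of gene, scaled to the library), the level of S100a9 was 2.01 times that of S100a8 at W8 and 2.28 times at W11.

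**Figure D1:**
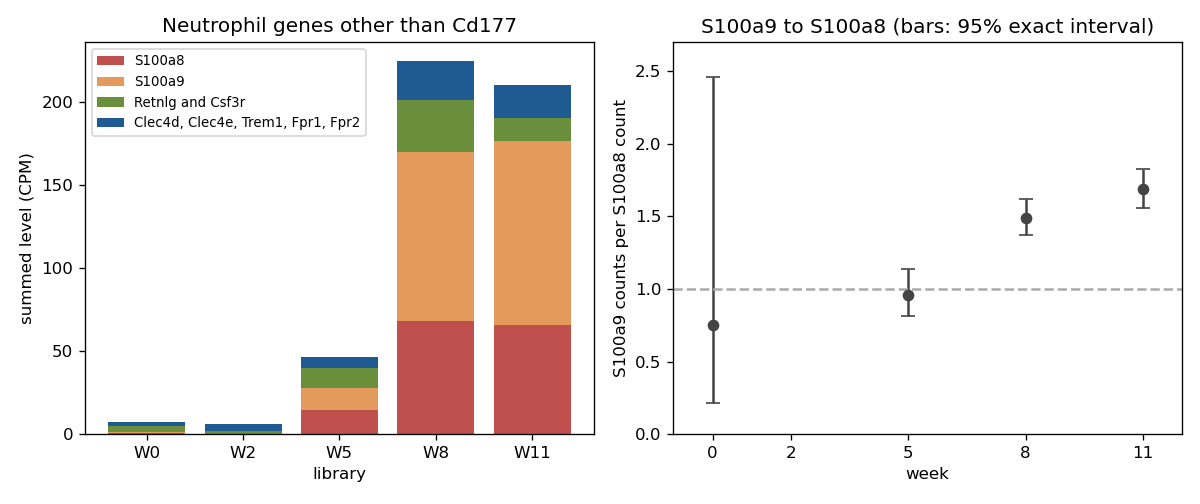
Left, the summed level in CPM of the 9 neutrophil genes other than Cd177 in each of the 5 libraries, with bars stacked by gene or group of genes. Right, S100a9 counts per S100a8 count by week, with 95% exact intervals and no value at W2, where S100a8 was at 0. The sum was 46.8 CPM at W5 and 225 at W8, and the ratio was 0.962 at W5 and 1.69 at W11.

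Retnlg, which encodes a resistin-like secreted protein of mouse granulocytes, also rose at W5 and W8. It was at 0.363, 0.137, 3.14, 15.2 and 8.43 CPM, the W0 and W2 values being 5 and 2 counts. Against W0 it rose by 1.60, 3.57 and 2.79 on the log2 scale at W5, W8 and W11, and the W8 ratio of 42.0 had an interval of 17.7 to 131. With 5 CPM added its W5 fold was 0.60, under 2-fold. Its W11 level was 0.553 of the W8 level (0.440 to 0.694), a log2 difference of -0.78 that is under 2-fold.

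Csf3r was measured at 3.34, 1.43, 8.39, 15.8 and 5.69 CPM. It rose by 1.11 at W5 and 1.95 at W8 against W0, and fell by 1.33 on the log2 scale from W8 to W11, the only member to fall in that step. Its W5 fold was 0.99 with median-of-ratios scaling, 0.68 with 5 CPM added and 0.46 with RPKM values, its W8 fold was 0.88 with RPKM values, and its last step was -0.96 with 5 CPM added and -0.68 with RPKM values, all under 2-fold. At W11 its log2 fold against W0 was 0.62, under 2-fold. Its level at W2 was 0.430 of that at W0 (0.244 to 0.735), with a log2 fold of -0.83. The ligand gene Csf3, named after its values were seen, was at 0, 0.410, 0.245, 2.02 and 0.803 CPM, so ligand and receptor were both at their highest at W8. The W8 value of Csf3 rests on 27 counts.

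Cd177, a surface glycoprotein through which neutrophils bind the endothelium, was the most abundant of the 10 genes per gene length in each library and moved least among those that rose. It was at 373.5, 262, 563.7, 820.5 and 639.5 CPM. It rose by 1.13 at W8, and its log2 folds of 0.59 at W5 and 0.77 at W11 were under 2-fold, the latter being 1.01 against the mean of W0 and W2. Per gene length at W0 it was at 58.1 RPKM, where none of the other 9 genes was above 0.29 RPKM. Which cells held the Cd177 RNA was not tested. Cd177 made up 98.1% of the reads of the 10 genes at W0 (95% Clopper-Pearson interval 97.7% to 98.5%), and 92.3%, 78.5% and 75.2% of them at W5, W8 and W11. A sum over the 10 genes is therefore mostly Cd177, which the control colon already held, and sums below leave it out.

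Clec4d and Clec4e encode neighbouring C-type lectin receptors, known as MCL and Mincle, that recognise microbial glycolipids. Clec4d was at 1.16, 0.956, 3.73, 13.5 and 13.5 CPM. It rose by 1.13, 2.75 and 2.75 on the log2 scale at W5, W8 and W11, but its W5 fold was 0.50 with 5 CPM added, 0.54 with RPKM values and 0.71 with the GC trend removed. Clec4e was at 0.726, 0.956, 3.09, 7.02 and 4.88 CPM, and rose by 1.25, 2.22 and 1.77. Its folds at these weeks were 0.12, 0.29 and 0.20 with RPKM values, where its levels lie far below the added 1 RPKM. With 5 CPM added they were 0.50 at W5 and 0.79 at W11, and with the GC trend removed 0.83 at W5. Between W8 and W11 the Clec4d ratio was 1.00 (0.814 to 1.23) and the Clec4e ratio 0.696 (0.505 to 0.955), both under a 2-fold change.

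Fpr1, a formyl peptide receptor, was higher at W2 than at W5. It was at 0.508, 2.12, 0.294, 2.84 and 1.27 CPM, which rest on 7, 31, 6, 38 and 19 counts. Against W0 it rose by 1.05 at W2 and 1.35 at W8, and from W2 to W5 it fell by 1.27, while 7 of the other genes rose in that step. The W2 ratio of 4.17 had an interval of 1.80 to 11.2, and the log2 fold at W2 was 0.37 with 5 CPM added and 0.56 with the RPKM values, both under 2-fold. Its log2 fold at W8 came to 0.73 with W0 and W2 averaged as the baseline, 0.51 with 5 CPM added and 0.78 with RPKM values, and its step from W2 to W5 was -0.43 and -0.65 with the last 2 settings, all under 2-fold. Trem1 was listed with 0 counts at W0 and 1, 2, 3 and 2 counts at W2, W5, W8 and W11, too few to place any change. Fpr2 was listed at 0 in all 5 libraries, where 3 counts would be between 0.147 and 0.224 CPM. In GENCODE M21, 48 of the 1296 exonic bases of Fpr2 are shared with Fpr3, which had 6 counts in all. Myd88 and Cyba, which many cell types use, were also listed at 0 throughout, so a value of 0 is not read as absence.

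**Figure D2:**
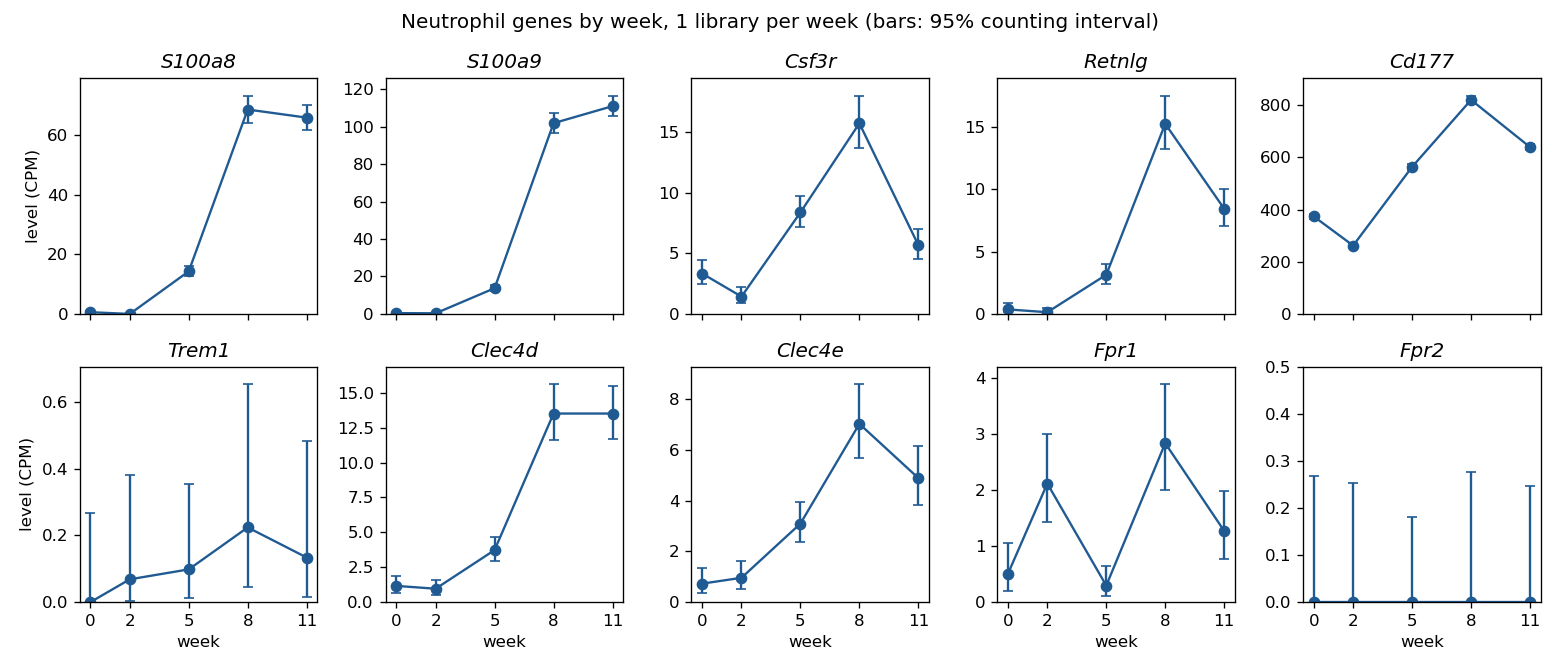
Levels in CPM of the 10 neutrophil genes by week, each on its own linear axis, with 95% counting intervals as bars and 1 library per point. S100a8, S100a9, Retnlg, Clec4d and Clec4e are low at W0 and W2 and high at W8, Cd177 starts at 373.5 CPM, Fpr1 has its higher values at W2 and W8, and Trem1 and Fpr2 stay at or near 0.

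Counted over the 10 genes, 1 rose and none fell at W2 against W0, where 3.41% of 14720 tested genes rose and 4.23% fell. At W5 against W0, 6 rose and none fell, where 6.63% of tested genes rose and 1.87% fell. At W8, 8 rose and none fell, where 7.79% rose and 3.85% fell, and at W11, 5 rose and none fell, where 11.3% rose and 16.9% fell. The members at least 2-fold apart were all among the 8 tested. The median log2 fold of the 10 genes was -0.12, 1.12, 2.08 and 1.27 at W2, W5, W8 and W11, beside -0.02, 0.11, 0.11 and -0.15 for all tested genes. These comparisons share the W0 library. Tested genes are those with a mean of at least 1 CPM over the 5 libraries, which 8 of the 10 genes, all but Trem1 and Fpr2, reach. For S100a8, S100a9, Retnlg and Clec4e this is owed to W5, W8 and W11, since their mean over W0 and W2 was under 1 CPM, so they had to differ. The 4 that reach 1 CPM over W0 and W2, namely Csf3r, Cd177, Clec4d and Fpr1, all rose at W8. At W5 only 2 of these 4 rose, Csf3r and Clec4d, and at W11 only 1, Clec4d, so the counts of 6 and 5 at those weeks rest mostly on genes that passed the filter through their later libraries. With 5 CPM added the count at W5 was 2, and with RPKM values it was 3 at W5 and 5 at W8, where 3.28% and 3.57% of tested genes rose.

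The steps between consecutive libraries show when the genes moved. From W2 to W5, 7 rose (9.44% of tested genes rose) and 1 fell, Fpr1 (4.46% fell). Among those that rose, S100a8, S100a9, Retnlg and Clec4e passed the filter only through W5, W8 and W11, and Csf3r, Cd177 and Clec4d passed it on W0 and W2. In this step S100a8 went from 0 to 291 counts, at least 69.7-fold higher against a floor of 3 counts in the W2 library. The count of 7 was 5 with median-of-ratios scaling (6.81% of tested genes rose), with folds centred on the median of tested genes (7.02%) and with the GC trend removed (6.97%). Cd177 was at 1.10 in CPM, 0.91 with that scaling, 0.95 with centred folds and 1.10 with the GC trend removed. Clec4e, at 1.06 in CPM, was under 2-fold in each of these settings. Clec4d, at 1.27 in CPM, was under 2-fold with the GC trend removed. From W5 to W8, 5 rose, namely S100a8, S100a9, Retnlg, Clec4d and Fpr1, and none fell (4.78% and 3.6% of tested genes). Of these, only Clec4d and Fpr1 passed the filter on W0 and W2. From W8 to W11 none rose and 1 fell, Csf3r (3.4% and 11.9%). The median log2 fold of all tested genes in this last step was -0.30, beside -0.23 for the 10 genes, and with median-of-ratios scaling the median of all genes was 0.01. Relative to that scaling, S100a8 was at 0.29 and S100a9 at 0.47 from W8 to W11, and Csf3r was at -1.01, so the sign for S100a8, at -0.06 in CPM, depends on the scaling, as does that of Clec4d, whose ratio in CPM was 1.00 and whose log2 fold was 0.33 with median-of-ratios scaling.

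**Figure D3:**
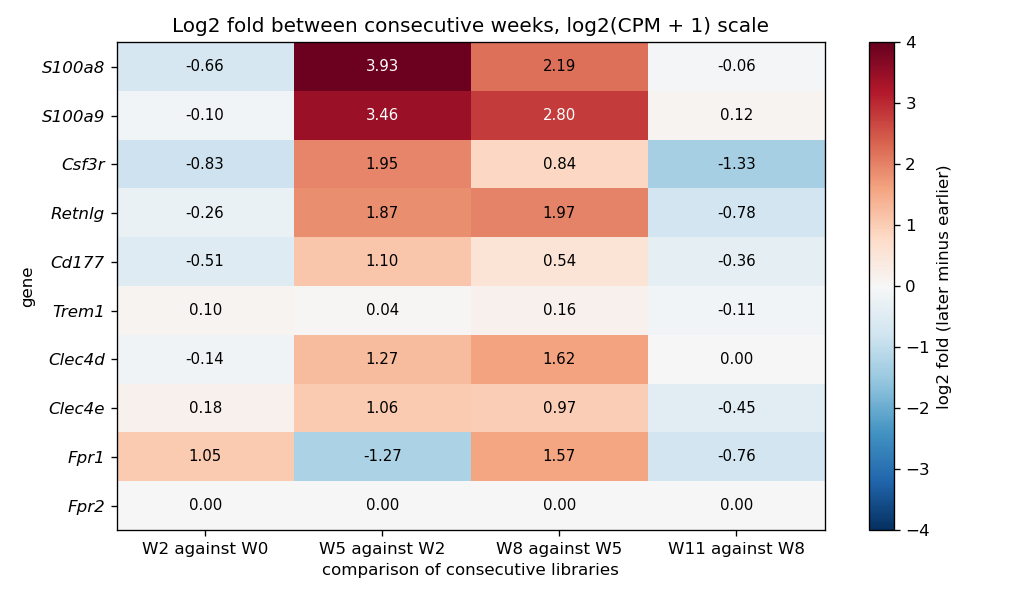
Log2 fold of the 10 neutrophil genes between consecutive libraries on the log2(CPM + 1) scale, later minus earlier, with 1 library for each week. Values past 1 lie mostly in the W5 against W2 and W8 against W5 columns, where S100a9 is at 3.46 and 2.80, and Csf3r is at -1.33 in the W11 against W8 column.

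Ordered by level per gene length at W8, Cd177 led at 128 RPKM, followed by S100a9 at 67.6, S100a8 at 33.6 and Retnlg at 12.4 RPKM. Clec4d was at 2.73, Csf3r at 1.38, Fpr1 at 1.03 and Clec4e at 0.26 RPKM, and Trem1 was at 0.02. The calprotectin genes took the following part of the reads of the 9 genes other than Cd177: 14.3% in the W0 library (8.04% to 22.8%), 59.9% by W5, 75.7% by W8 and 83.9% by W11 (82.6% to 85.2%). The sum of those 9 genes was 7.11, 6.01, 46.8, 225 and 210.7 CPM. Ptprc, which encodes the CD45 antigen of all leukocytes, was at 47.7, 47.7, 53.7, 38.2 and 30.7 CPM. There were thus 0.149 reads of the 9 genes for each Ptprc read at W0 and 5.9 at W8 and 6.86 at W11.

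Of 16 further genes of mature neutrophils, the numbers that rose at W5, W8 and W11 were 5, 7 and 6, and 1 fell at W11. Beside these and the list counts that follow stand the shares of all tested genes that rose, 6.63%, 7.79% and 11.3% at W5, W8 and W11, and that fell, 1.87%, 3.85% and 16.9%. The bases differ, since a list count covers every gene of its list, tested or not. Of these 16 genes, 10 were tested. So were 3 of the 12 genes of the granule list, among them the transcription factor Gfi1. The same holds for 8 of the 12 growth factors and chemoattractants and 13 of the 24 paralogs below. Padi4, the enzyme that citrullinates histones in neutrophil extracellular traps, was at 0.435, 0.478, 14.0, 54.1 and 24.4 CPM. Asprv1, an aspartic protease also made in skin, was at 0.726, 0.273, 7.90, 49.5 and 59.8 CPM, and like S100a9 it was highest at W11. Mmp9, the neutrophil gelatinase, rose by 3.36, 4.51 and 2.60 at W5, W8 and W11, and the decoy receptor Il1r2 by 1.67, 2.31 and 2.10. Cxcr2, the neutrophil chemokine receptor, was at 0.290, 0, 1.18, 3.14 and 0.0669 CPM, the last being 1 count. Cxcr2, Ly6g, Pglyrp1 and Mxd1 were chosen for mention after their values were seen.

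Ly6g, the surface antigen by which mouse neutrophils are commonly recognised, did not pass 2-fold. It was at 109.8, 139, 155, 77.9 and 79.1 CPM, with log2 folds against W0 between -0.49 and 0.49. Close relatives in the Ly6 family may share its reads, so these values are uncertain. Itgam, the integrin alpha chain of neutrophils and macrophages, named after its values were seen, was listed at 0 in every library. Of the members and the 16 further genes, Cd177, Ly6g, Mxd1 and Pglyrp1 were above 100 CPM in the control library, where S100a8, S100a9 and Retnlg were below 1 CPM. Which cells held the RNA of Cd177, Ly6g, Mxd1 and Pglyrp1 there was not tested. Pglyrp1, an antibacterial granule protein, was at 292 CPM at W0 and 1123 CPM at W11, and Mxd1, a transcriptional repressor, was at 223.5 CPM at W0 and fell by 1.35 at W11.

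Granule genes, which neutrophils transcribe mainly as precursors in bone marrow, did not all move alike. The granule list of 12 genes also holds the transcription factors Cebpe and Gfi1, neither of which passed 2-fold at W5, W8 or W11. Of the 12, 4, 2 and 2 rose at W5, W8 and W11 and none fell. Mpo, Elane, Prtn3 and Ctsg, of the primary granules and named after their values were seen, were each below 1 CPM in all 5 libraries. Ltf, lactoferrin of the secondary granules, was at 0.798, 2.32, 5.25, 15.2 and 4.62 CPM and rose by 3.17 at W8, and Mmp8, the neutrophil collagenase, was at 0 at W0 and W2 and 1.28, 5.53 and 1.27 CPM at W5, W8 and W11. Ngp was at 0 at W0 and W2, 2.01 CPM at W5 and 0.335 at W11, and Chil3 was at 0.290 CPM at W0 and 2.01 at W5.

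**Figure D4:**
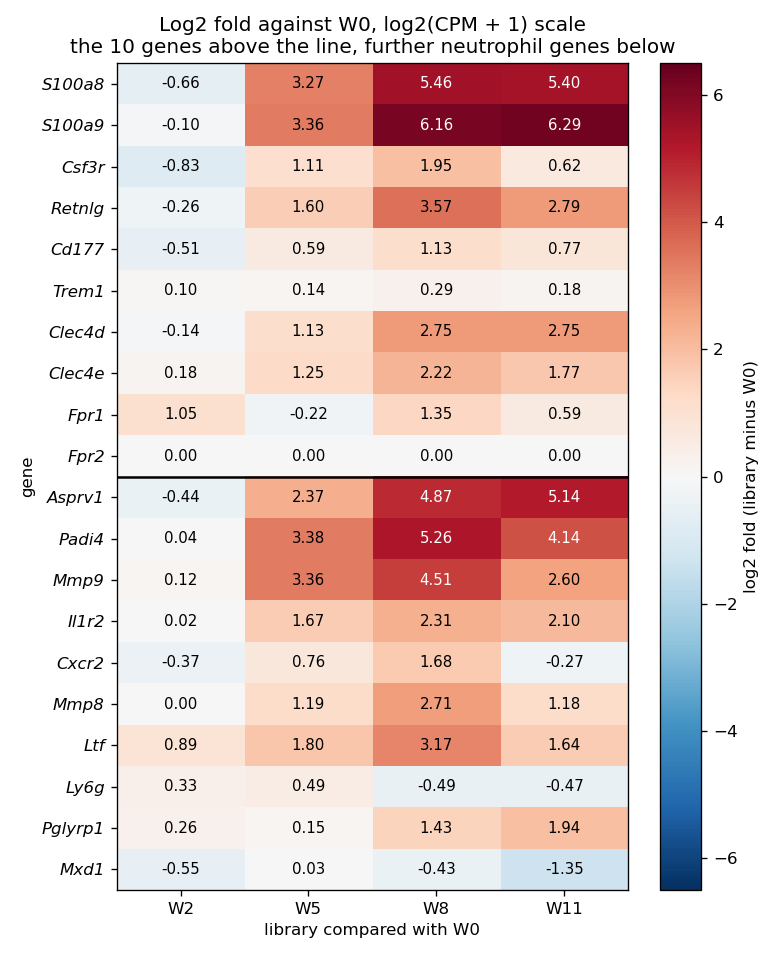
Log2 fold against W0 on the log2(CPM + 1) scale at W2, W5, W8 and W11 for the 10 neutrophil genes, above the line, and for 10 further neutrophil genes, of which Cxcr2, Ly6g, Pglyrp1 and Mxd1 were chosen after their values were seen. S100a9, S100a8, Padi4 and Asprv1 have values above 4 at W8 and W11, while Ly6g lies between -0.49 and 0.49.

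Among 12 neutrophil growth factors and chemoattractants, 5, 7 and 7 rose at W5, W8 and W11 and none fell. Cxcl5 was at 1.81, 1.64, 69.4 and 149 CPM from W0 to W8 and rose by 5.17 at W11, Cxcl2 was at 2.25, 3.55, 11.8, 21.2 and 30.0 CPM, and Cxcl3 at 0, 0.0683, 2.36, 8.81 and 4.28 CPM. Cxcl1 was at 1.52, 4.37, 9.03, 6.57 and 17.6 CPM and rose by 1.09 at W2. Of 9 rolling and adhesion genes, 3 rose at W5 and 3 at W8, and at W11 none rose and 1 fell, Itgal, a leukocyte integrin chain, by 1.51, with P-selectin (Selp) at 2.98, 12.9 and 5.62 CPM at W0, W8 and W11 and Icam1 at 21.9, 60.2 and 24.2 CPM. None of 6 phagocyte oxidase genes passed 2-fold in either direction at W2, W5, W8 or W11 against W0, and Cybb, its catalytic subunit, was at 24.2, 45.2, 38.8 and 21.3 CPM at W0, W5, W8 and W11. Of 12 signalling partners, 2 rose at W8 and W11: Tyrobp, the adaptor of Trem1, at 16.5, 41.2 and 84.2 CPM at W0, W8 and W11, and Fcer1g, the adaptor of Mincle, at 20.03, 48.2 and 44.0 CPM. Syk fell by 1.24 at W11.

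Paralogs of the members went in both directions. Of 24 paralogs, 6, 5 and 7 rose at W5, W8 and W11, and 2 fell in each of these libraries, where 1.87%, 3.85% and 16.9% of all tested genes fell. Clec4n, next to Clec4d in the genome, was at 11.9, 44.9 and 55.2 CPM at W0, W8 and W11, Clec7a (Dectin-1) at 4.06, 22.0 and 34.2 CPM, and Clec5a at 0.726, 5.75 and 5.09 CPM. S100a11 rose by 2.47, 1.98 and 1.88 at W5, W8 and W11. Retnla, which lies beside Retnlg, fell: it was at 6.31 CPM at W0 and 1.57 at W8, a log2 fold of -1.51, and was chosen for mention after its values were seen.

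Markers of other cells moved in the same libraries. Macrophage markers, which include cells that carry Clec4d, Clec4e and Fpr1, summed to 642, 395, 1013, 905.5 and 879.8 CPM. Of these 10 markers, 1, 0 and 1 were higher at W5, W8 and W11 against W0. At W2 against W0, 3 of them were lower, where 4.23% of tested genes fell. At W5 against W2, 6 were higher, where 9.44% of tested genes rose. Squamous epithelium markers, whose cells can make S100a8, S100a9 and Asprv1, summed to 6.68, 6.56, 28.4, 68.79 and 68.85 CPM, and 5 of 9 rose at W8. In that list, from which Krt5, Trp63 and Ivl were named after their values were seen, Krt14 was at 2.83, 41.5 and 43.4 CPM at W0, W8 and W11, Krt13 at 1.16, 13.22 and 12.98 CPM and Krt6a at 0, 5.08 and 1.14 CPM, while the defining Krt5 stayed at or below 0.224 CPM, Trp63 at or below 0.134 CPM, and Ivl was listed at 0. The part of squamous cells in the S100a8 and S100a9 levels was not tested. Mast cell markers summed to 55.0, 27.05, 193, 228 and 158 CPM, with 6, 7 and 7 of 8 higher at W5, W8 and W11, and 1, Kit, lower at W11 by 2.38. Without Kit, which other cells of the gut wall also carry, the markers summed to 6.97, 4.30, 150.2, 198 and 149.6 CPM. Kit itself was at 48.05 CPM at W0, 30.3 at W8 and 8.43 at W11. Eosinophil markers summed to 2.90, 3.28, 6.77, 7.92 and 10.1 CPM, and 1 of 5, Prg2, rose at each of W5, W8 and W11. Prg2 was at 1.16, 1.57, 3.34, 5.15 and 8.30 CPM. Epx, an eosinophil granule peroxidase named after its values were seen, was at 0 in 4 libraries. Red cell markers, a measure of blood in the tissue, summed to 31.9, 18.0, 40.4, 45.9 and 111 CPM, with 4 of 5 higher at W11, and the part of blood neutrophils was not tested.

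At W5 against W0, 3 of 5 monocyte markers, 3 of 6 T cell markers, 1 of 5 B cell markers and 1 of 5 plasma cell markers rose, and none of 6 dendritic cell markers passed 2-fold. In the step from W2 to W5, 7 of the neutrophil genes and 4 of 5 plasma cell markers rose, where 9.44% of tested genes rose. The plasma cell markers were low at W2, with a median log2 fold against W0 of -0.68, beside -0.02 for all tested genes. At W8 against W0, 1 monocyte and 1 T cell marker rose, 2 B cell markers and 1 of 5 smooth muscle markers fell, and no dendritic cell, plasma cell or colon epithelium marker passed 2-fold. At W11 against W0, 3 of 6 colon epithelium markers, 1 smooth muscle, 1 monocyte, 1 T cell and 1 B cell marker and 2 macrophage markers fell, while 2 T cell markers and 1 each of the monocyte, dendritic cell and plasma cell markers rose. The part of these cells in the levels of the neutrophil genes was not tested. Colon epithelium markers summed to 18317 CPM at W0 and 12279 at W8. Smooth muscle markers summed to 4702 and 3019 CPM.

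**Figure D5:**
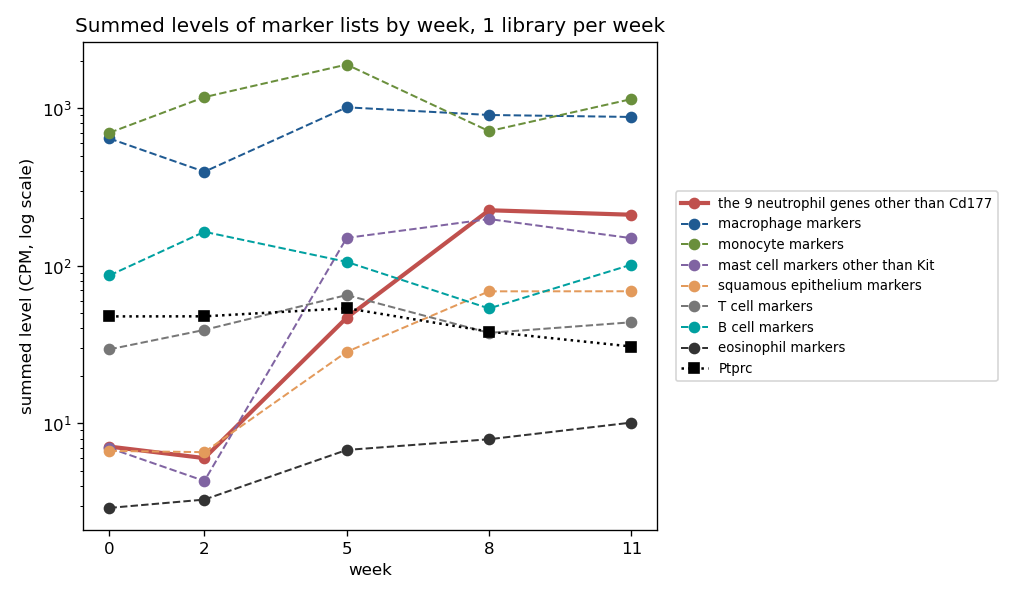
Summed level in CPM, on a log axis, of the 9 neutrophil genes other than Cd177 and of marker lists for other cells by week, with 1 library per point. The neutrophil line goes from 7.11 CPM at W0 to 225 CPM at W8, the squamous line from 6.68 to 68.79 CPM, the mast cell line, drawn without Kit, from 6.97 to 198 CPM, and Ptprc lies between 30.7 and 53.7 CPM.

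The genes whose course was most like that of the list were found by the root mean square difference of their 4 log2 folds against W0 from the median of the 9 members with a count, over 5 libraries that share the W0 baseline. Ttc9 was closest at 0.08, followed by Sh3tc2 at 0.12, Nrep at 0.14, Arl4c at 0.15, Ajuba at 0.16, Eya2 at 0.18, and Tpd52l1, Casp6 and Mexis at 0.20, with Smoc2 at 0.21. Ttc9 was at 1.60, 1.43, 4.32, 11.9 and 8.43 CPM. Of the members themselves Clec4e lay closest to their median, at 0.17, and S100a8 and S100a9 farthest, at 2.67 and 3.20. The median of the members therefore describes Clec4e more closely than it does calprotectin.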

How the data were processed

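The deposited table gives a pair of columns for each of 5 mouse colon libraries. In the authors' deposited file, the TPM headers stand over whole numbers whose totals differ between libraries, and these were used as read counts. The count headers of the deposited file stand over values that behave as RPKM. Their ratio to the counts, relative to W0, was the same within 1% in all 2620 genes above 5 RPKM in each library; from the whole numbers the headers were taken to be exchanged. Per the submitters' processing notes the tools were FastQC, HISAT2 2.2.1 and featureCounts, and both GRCm38 and GRCm39 are named. Which annotation and strand setting were used is not given in the sources used here. Per the labels' protocols, colon RNA extracted in TRIzol went into TruSeq libraries.

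Counts were scaled to library totals (CPM), and log2(CPM + 1) differences of at least 2-fold were called. Ratios have conditional Clopper-Pearson 95% intervals, levels Poisson intervals. A library at 0 was set to 3 counts for a bound. Depth limits precision: intervals and floors cover counting error only. A symbol with several identifiers was given to the most abundant. The members and lists were chosen with earlier results of these data known. All members are named; of other lists, up to 4 genes with the largest folds at W8 or W11, and the 10 genes closest in course. Other genes, among them defining markers at or near 0, were named after their values were seen. The calling step was tested on simulated counts. Alternatives were pseudocounts of 0.1 and 5, a 3-fold threshold, a call on the counting interval, RPKM in place of CPM, no filter, 3 scalings, and, added after seeing the data, removal of the GC trend, a baseline of W0 and W2, and leaving out Cd177. Software was scipy 1.17.1, pandas 2.3.3, numpy 2.4.6 and matplotlib 3.10.9 under Python 3.11.15.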

Additional observations from a re-analysis of the deposited data

How the results depend on the processing

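No paired analysis was possible because each week has 1 library, and for the same reason no replicate could be left out. Of 160 alternative counts of members, 141 stayed within 1.5 times the reported count, or at 0 where the reported count was 0. Many of the 141 are such counts of 0, to which no range of 1.5 times applies. The reported count was 0 for members lower at W2, W5, W8 and W11 against W0 and at W8 against W5. It was also 0 for members higher at W11 against W8. Part of the 141 was also fixed in advance. Members were counted without the filter, so the setting with no filter could not change their counts. Leaving out Cd177 could change a count by at most 1. The share of tested genes called under the same setting is given in parentheses. With a pseudocount of 0.1 CPM, 2 members were lower at W2 against W0 (6.43%) and 2 at W11 against W8 (16.2%). With 5 CPM, 0 were higher at W2 (1.15%) and 2 at W5 (3.04%) against W0, 4 at W5 against W2 (5.07%), and 0 were lower at W5 against W2 (2.29%) or W11 against W8 (5.5%). With the RPKM values, 0 were higher at W2 (0.999%), 3 at W5 (3.28%) and 5 at W8 (3.57%) against W0, 4 at W5 against W2 (4.95%), and 0 were lower at W5 against W2 (1.81%) or W11 against W8 (2.27%). With a 3-fold threshold, 0 were higher at W2 (0.537%) and 3 at W5 (2.02%) against W0, 4 at W5 against W2 (3.44%), and 0 were lower at W5 against W2 (0.938%) or W11 against W8 (1.41%). When the counting interval itself had to pass 2-fold, 0 were higher at W2 against W0. The cause of these shifts was not tested, except that a larger pseudocount shrinks the folds of low genes by construction. None of the called folds of single members changed sign under the settings tried. Leaving out Cd177 and removing the GC trend, both chosen after seeing the data, kept each count within 1.5 times, or at 0 where it was 0. Few counts limit Trem1, Fpr1 and the W0 and W2 values of S100a8, S100a9 and Retnlg.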
